A study of Mus musculus with 36 samples.

Results

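The 10 calcium cycling genes described here encode the calcium pumps of muscle (Atp2a1, Atp2a2), their small inhibitors (Sln, Pln), the proteins that hold calcium in the store or buffer it in the cytosol (Casq1, Casq2, Pvalb), and the machinery that releases it (Ryr1, Cacna1s, Jph1). They were picked by name from the 45802 gene rows of a mouse muscle expression table, of which 17873 held a value. All 10 passed the filter on low values, as did 13404 genes in all, and all 10 had a value in every library. The table covers 2 muscles, soleus and extensor digitorum longus (EDL), of mice in which genes for estrogen-related receptors (ERRs, orphan nuclear receptors) were deleted in muscle. There were 3 deletion classes, lacking ERRα, ERRβ with ERRγ, or ERRα with ERRγ. Every class was sampled in both muscles with 3 libraries labelled knockout and 3 from its wild types, which makes 12 groups and 36 libraries.

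The floxed ERR alleles were deleted by Cre recombinase driven by the human α-skeletal actin promoter, which is active in muscle fibres, so vessels, connective tissue, nerve and blood cells in the muscle were not targeted. Wild types were littermates. The column marks were read as floxed with Cre for the knockouts and floxed without Cre for the wild types. All animals were 1-year-old males backcrossed to C57BL/6JBom for at least 10 generations, kept at about 22 °C on standard chow. No group received a treatment. If that reading were wrong, every sign given for a knockout would turn.

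In a skeletal muscle fibre, an action potential moves the voltage sensor of the transverse tubule, which opens the ryanodine receptor of the sarcoplasmic reticulum, and calcium flows out of the store to start contraction. SERCA pumps then return it, at a rate that sarcolipin and phospholamban lower, while calsequestrin binds calcium inside the store and parvalbumin binds it in the cytosol. Fast fibres are known for the SERCA1 pump, calsequestrin 1 and abundant parvalbumin, and slow fibres for SERCA2 and for calsequestrin 2, which is also the heart form.

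Values are log2 signals that the authors had quantile normalized. Between 13667 and 14951 genes had a value in a library, and this is the only trace of sequencing depth that remained. The muscles separated by their fibre markers: the summed signal of 8 slow fibre markers was 13.21 to 14.27 in soleus and 4.06 to 7.02 in EDL, and that of 10 fast fibre markers was 13.82 to 14.48 in soleus and 14.78 to 14.97 in EDL. The summed signal of 7 heart markers was 1.27 to 4.16 in all libraries. In soleus of the ERRβ/ERRγ class it was 3.07 to 4.16 in the knockout-labelled libraries and 2.79 to 3.00 in the wild types, without overlap. No heart marker was called there. In soleus of the ERRα/ERRγ class the heart sums overlapped (3.13 to 3.92 against 2.65 to 3.16), and 1 of 4 tested heart markers was called higher. Of the deleted genes, Esrra was lower in the ERRα/ERRγ class (-2.23 ± 0.12 in EDL, -0.57 ± 0.12 in soleus, ± SE) and was not called in the ERRα class. Esrrg was higher, against its label, in the ERRα/ERRγ class (0.51 ± 0.15 in EDL, 1.21 ± 0.15 in soleus) and in soleus of the ERRβ/ERRγ class (1.09 ± 0.15), and also in EDL of the ERRα class (0.61 ± 0.15). Esrrb was not called in the ERRβ/ERRγ class (-0.18 ± 0.21 in EDL, 0.28 ± 0.21 in soleus) and was lower in EDL of the ERRα/ERRγ class (-1.60 ± 0.21). A whole-gene signal need not show the loss of an exon, and the libraries are called knockout-labelled throughout. Of markers of other cells, the tendon gene Scx rose in the ERRα/ERRγ class (2.07 ± 0.25 in EDL, 2.13 ± 0.25 in soleus) and in soleus of the ERRβ/ERRγ class (2.10 ± 0.25). Of 6 tendon markers it was the only 1 called in each muscle of the ERRα/ERRγ class. In soleus of the ERRβ/ERRγ class 2 of the 6 were called higher, and in EDL of the ERRα class 1. In EDL of the ERRα/ERRγ class the median change of the 6 was -0.41 and their sum overlapped (5.24 to 6.06 against 5.73 to 5.89). In EDL and soleus of the ERRα/ERRγ class and in soleus of the ERRβ/ERRγ class 1 of 7 smooth muscle markers rose, Des, which muscle fibres also express. The smooth muscle sum did not overlap in any of them (9.66 to 9.84 against 9.27 to 9.36, 10.01 to 10.12 against 9.35 to 9.57, and 9.95 to 10.76 against 9.50 to 9.85). In that order, the median change of the 7 markers was -0.04, -0.03 and 0.16. The sum did not overlap in EDL of the ERRα class either (9.56 to 9.64 against 9.25 to 9.50), where no smooth muscle marker was called. The endothelial gene Kdr fell in EDL of the ERRα/ERRγ class (-0.60 ± 0.17) and the Schwann cell gene Mbp in its soleus (-1.77 ± 0.54). No leukocyte marker was called by limma, but the leukocyte sum was higher without overlap in soleus of that class (6.12 to 6.41 against 5.23 to 5.85). The tendon sum was also higher there without overlap (nearest libraries 5.84 knockout-labelled and 5.48 wild type). So was the fibroblast sum, where the nearest libraries were almost equal (8.7997 and 8.796). The endothelial sum was lower there without overlap, with nearest libraries at 6.76 knockout-labelled and 6.77 wild type. Of 8 fibroblast and 8 endothelial markers none was called there by limma (1 of each at an unadjusted p under 0.05). The part of these shifts in the changes of the calcium cycling genes was not tested.

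Wild-type soleus was set against wild-type EDL over 9 libraries of each, to give the baseline of every gene. All 10 genes differed, where 54.4% of all genes tested passed the same threshold (limma, Benjamini-Hochberg adjusted p under 0.05), 30.8% as higher and 23.6% as lower in soleus. The 4 that were higher in soleus were Atp2a2, Sln, Pln and Casq2, and the 6 that were lower were Atp2a1, Casq1, Pvalb, Ryr1, Cacna1s and Jph1. For none of the 10 did any soleus library overlap any EDL library, as for 17.1% of all genes tested, and all 10 were called under every alternative setting tried.

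The pumps went opposite ways. Atp2a1 (chr7:126445858-126463108, minus strand), which encodes the fast pump SERCA1, ran from 11.92 through a median of 12.05 to 12.34 in EDL and from 10.43 through 10.66 to 11.14 in soleus. The difference, soleus minus EDL, was -1.43 ± 0.089 (2.69-fold lower, adjusted p = 3.83e-14). Atp2a2 (chr5:122453513-122502225, minus strand), which encodes the slow and cardiac pump SERCA2, ran from 2.22 through 2.69 to 3.62 in EDL and from 9.47 through 9.77 to 10.29 in soleus. It was 133-fold higher in soleus (7.06 ± 0.14, adjusted p = 1.04e-25), the widest separation of the 10. So the slow muscle held a high signal of both pumps, while Atp2a2 was low in the fast muscle.

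Both inhibitors were higher in soleus. Sln (chr9:53850164-53854560, plus strand) encodes sarcolipin and ran from -1.42 through -0.11 to 1.62 in EDL and from 4.32 through 5.05 to 7.62 in soleus, a difference of 5.20 ± 0.36 (36.9-fold, adjusted p = 4.12e-13). Pln (chr10:53337667-53345987, plus strand) encodes phospholamban and ran from -1.21 through -0.24 to 0.22 in EDL and from 1.48 through 2.65 to 3.92 in soleus, a difference of 2.99 ± 0.27 (7.93-fold, adjusted p = 1.31e-10). These were also the members that varied most between libraries of a group, with pooled SDs of 0.826 for Sln and 0.613 for Pln, against 0.119 for Cacna1s. Exons of Gm47644, annotated on the opposite strand and without a value, cover 59.6% of the exon bases of Pln. Those of Cep85l, also on the opposite strand, cover 5.11%, and its mean signal was 2.18. The kit marks strand, but whether the counting used it is not given in the sources used here, so reads of Pln and of its antisense neighbours cannot be told apart. The same holds for Cacna1s, where Gm37759, without a value, covers 1309 bases of exons. For Atp2a1, exons of Rabep2 cover 21.9%, but the mean signal of Rabep2 was only -0.51. Wild-type Atp2a1 ran from 10.43 in soleus to 12.34 in EDL.

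The store proteins and the buffer split by fibre type too. Casq1 (chr1:172209894-172219868, minus strand), the fast form of calsequestrin, ran from 9.42 through 10.02 to 10.16 in EDL and from 7.46 through 7.64 to 8.09 in soleus (-2.23 ± 0.086, 4.70-fold lower, adjusted p = 1.24e-18). Casq2 (chr3:102086415-102146514, plus strand), the slow and cardiac form, ran from 2.30 through 3.13 to 4.07 in EDL and from 6.31 through 6.89 to 7.56 in soleus (3.79 ± 0.18, 13.8-fold higher, adjusted p = 1.71e-16). Pvalb (chr15:78191114-78206400, minus strand), the cytosolic buffer parvalbumin, ran from 12.17 through 12.45 to 12.79 in EDL and from 6.18 through 7.53 to 8.54 in soleus (-5.12 ± 0.26, 34.8-fold lower, adjusted p = 3.61e-16). The soleus libraries spread over more than 2 log2 units for Pvalb, whereas the EDL libraries lay close together.

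Pvalb held rank 2 to 6 and Atp2a1 rank 5 to 8 among all genes in the EDL libraries, and quantile normalization gives each rank nearly 1 fixed value (12.44 to 12.47 for rank 4 over the 36 libraries). Their EDL values can therefore move only in steps between ranks, and a change in the amount of either RNA within EDL may not show.

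The 3 release genes were lower in soleus by smaller amounts. Ryr1 (chr7:29003344-29125179, minus strand), the release channel of the store, ran from 6.99 through 7.25 to 7.68 in EDL and from 5.86 through 6.41 to 6.88 in soleus (-0.86 ± 0.094, 1.82-fold lower, adjusted p = 6.13e-09). Cacna1s (chr1:136052750-136119822, plus strand), the pore subunit of the voltage sensor, ran from 6.90 through 7.08 to 7.33 in EDL and from 6.26 through 6.50 to 6.69 in soleus (-0.59 ± 0.056, adjusted p = 3.79e-10). Jph1 (chr1:16964560-17097889, minus strand), junctophilin 1, which ties the store to the transverse tubule, ran from 6.34 through 6.72 to 6.92 in EDL and from 5.03 through 5.26 to 5.53 in soleus (-1.48 ± 0.073, 2.79-fold lower, adjusted p = 2.54e-16). Gene coordinates are those of GENCODE M21 on GRCm38. In bulk muscle, fewer fibres of a type and less RNA per fibre cannot be told apart.

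**Figure D1:**
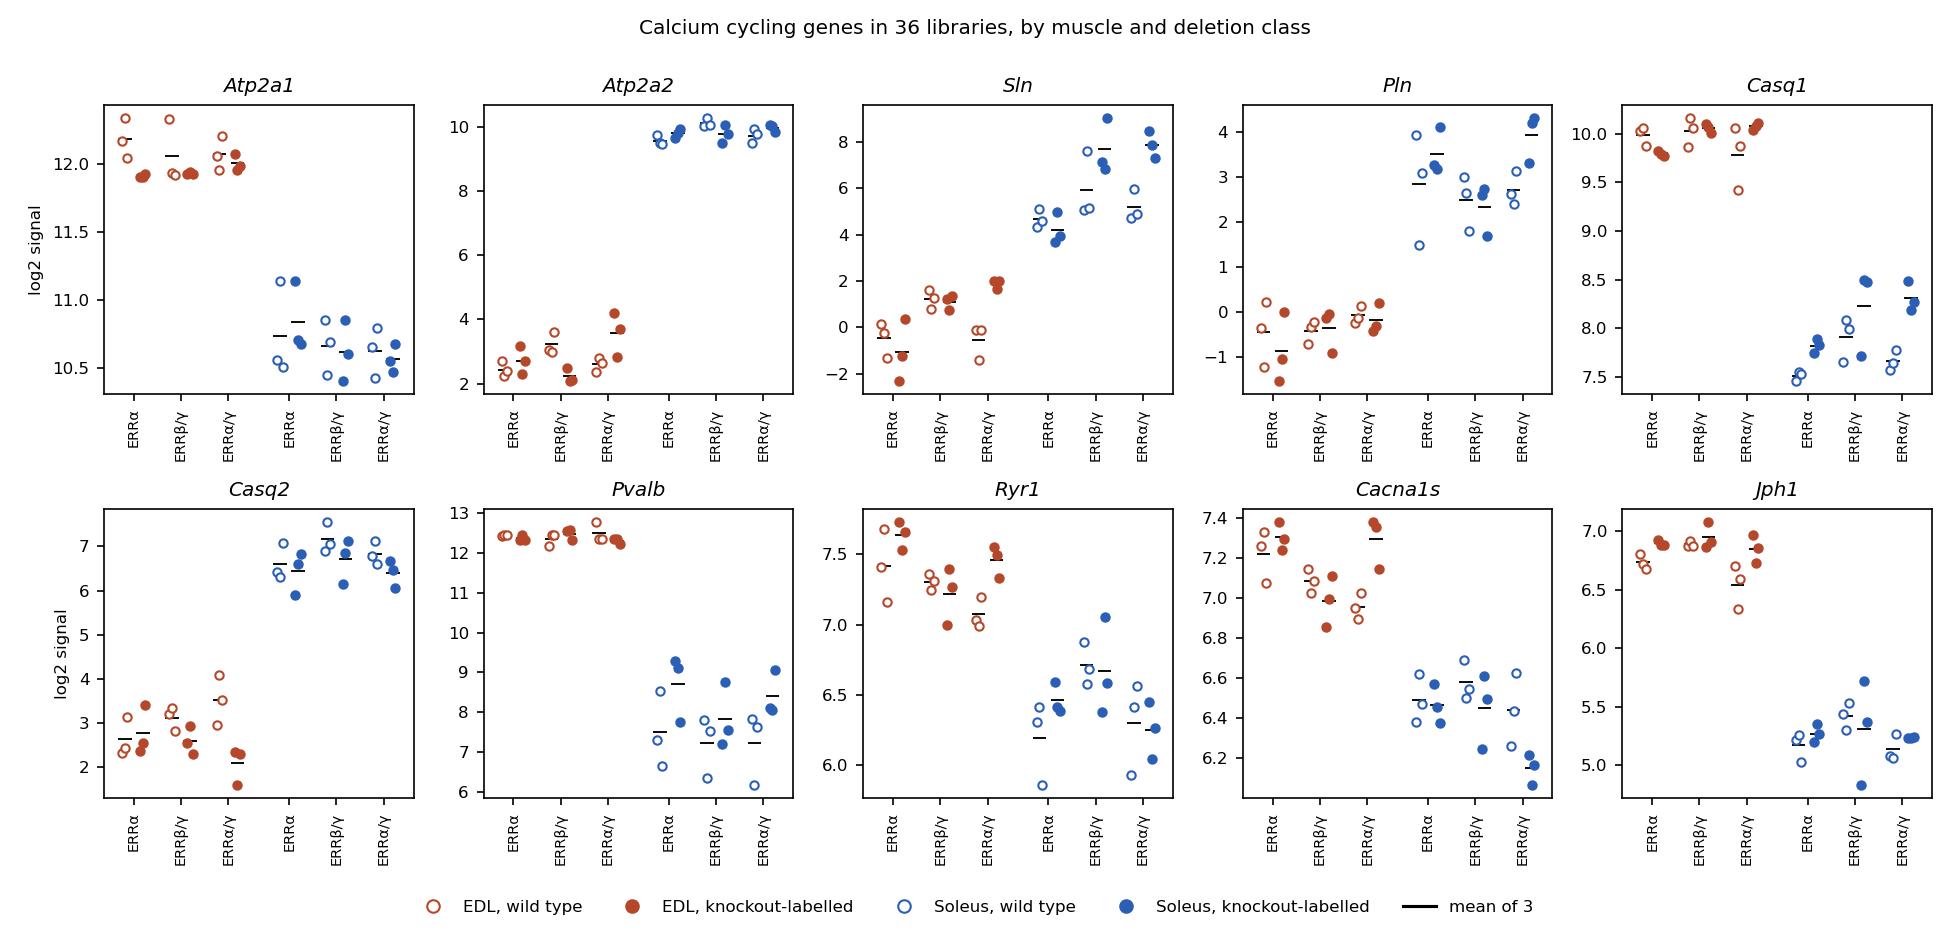
Log2 signal (y axis) of each of the 10 calcium cycling genes in all 36 libraries, grouped on the x axis by deletion class. Open points are wild-type and filled points knockout-labelled libraries, red for EDL and blue for soleus, and bars are means of 3. For every gene but Ryr1 the 18 soleus points lie apart from the 18 EDL points. For Ryr1, a soleus point of the ERRβ/ERRγ knockout-labelled group (7.05) lies above the lowest EDL point (6.99). The filled points of Sln stand above the open ones in the ERRα/ERRγ class of both muscles.

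Among all 12 groups the order of levels was set first by the muscle. For each of the 10 genes the means of the 6 groups of 1 muscle stood above the 6 of the other. The libraries of the groups at that border were apart (10 of 10 pairs). For Ryr1, groups away from that border overlapped between the muscles, with 7.05 in a soleus ERRβ/ERRγ knockout-labelled library and 6.99 in an EDL ERRα/ERRγ wild type. The share of all genes with this order was not computed, and 17.1% had no overlap between the wild types of the muscles. Within a muscle, neighbours in the order mostly could not be separated: only 6 of 100 neighbouring pairs of groups had libraries that did not overlap (2 each for Sln and Casq1, 1 each for Atp2a1 and Cacna1s). Groups sorted by their means have close neighbours by construction, and no such count over all genes was made. In EDL, the group means of Atp2a2 went from 2.23 ± 0.23 (SD, n = 3) in ERRβ/ERRγ knockout-labelled to 3.58 ± 0.69 in ERRα/ERRγ knockout-labelled libraries, and those of Casq2 from 2.07 ± 0.42 in ERRα/ERRγ knockout-labelled to 3.52 ± 0.56 in their own wild types. In soleus, the means of Sln went from 4.20 ± 0.68 in ERRα knockout-labelled to 7.90 ± 0.59 in ERRα/ERRγ knockout-labelled libraries, the widest range of group means of a member within a muscle. The wild types were not alike: in EDL, Sln was 0.78 to 1.62 in the ERRβ/ERRγ wild types, above all other wild types of that muscle (-1.42 to 0.15).

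The promoters of 3 members are shown because these genes lie on opposite sides of the fast and slow divide and because a MEF2 motif, bound by a family of muscle transcription factors, sat in some of them. Of the 10 genes, 7 had a window among the RefSeq promoters of GRCm38.p6 (Atp2a2, Sln and Jph1 had no entry used here), and the 250 bases before the transcription start are printed 5′ to 3′ with MEF2 matches in capitals. Casq1 is chr1:172219896-172220145 on the minus strand, Casq2 is chr3:102086165-102086414 on the plus strand and Pvalb is chr15:78206401-78206650 on the minus strand.
Casq1: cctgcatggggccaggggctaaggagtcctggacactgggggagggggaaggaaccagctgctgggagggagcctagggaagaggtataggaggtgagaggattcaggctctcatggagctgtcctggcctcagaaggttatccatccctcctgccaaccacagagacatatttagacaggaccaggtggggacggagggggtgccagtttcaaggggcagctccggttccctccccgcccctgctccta
Casq2: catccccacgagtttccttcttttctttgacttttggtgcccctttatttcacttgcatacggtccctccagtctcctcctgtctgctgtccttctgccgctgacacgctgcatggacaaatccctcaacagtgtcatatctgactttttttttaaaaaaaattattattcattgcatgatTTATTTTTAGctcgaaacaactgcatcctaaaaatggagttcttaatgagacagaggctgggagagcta
Pvalb: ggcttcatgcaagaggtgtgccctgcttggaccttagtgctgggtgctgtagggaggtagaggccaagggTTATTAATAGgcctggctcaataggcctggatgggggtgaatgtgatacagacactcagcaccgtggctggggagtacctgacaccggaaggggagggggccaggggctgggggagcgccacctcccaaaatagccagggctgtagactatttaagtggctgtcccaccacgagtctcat

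Each window was searched on both strands for TCAAGGTCA, the extended ERR element, for its core AAGGTCA, which lies inside it, and for the MEF2 consensus. No member window held either ERR sequence, and 0.423% and 4.72% of all 32851 promoter windows did. The searched windows also hold bases past the start site, which are not printed. With 8 member windows at these shares, the absence is not informative. The MEF2 consensus was found before the start site in 2 of the 8 windows of the 7 genes. It lay in Casq2 at positions -69 to -60 and in Pvalb at -180 to -171 from the RefSeq start site. Of all windows, 3.19% held it, bases past the start included. Pvalb has a second start, with the bases before it at chr15:78204238-78204487 on the minus strand, and these held no MEF2 match. These are matches of letters in short windows, and no binding was measured here.

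In EDL of the ERRα/ERRγ class, 4 of the 10 genes changed, where 18.1% of all genes tested were called (11.1% higher, 6.95% lower). Sln, Atp2a2 and Cacna1s rose and Casq2 fell. The slow pump and the slow calsequestrin thus moved opposite ways. The median change of the 10 was 0.30 and that of all genes 0.13, and 6 of the 10 had an unadjusted p under 0.05.

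Sarcolipin showed the largest change of the 10 in this EDL comparison. Its log2 signals were -0.11, -1.42 and -0.13 in the wild-type libraries and 2.01, 1.67 and 2.00 in the knockout-labelled ones. Every knockout-labelled library was above every wild-type one. The change was 2.45 ± 0.62 (5.47-fold, adjusted p = 0.00522), and it stayed called under all 16 alternatives, with values from 1.46, where a pseudocount was added, to 2.67.

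The slow pump rose by less and less evenly. Atp2a2 was 2.35, 2.81 and 2.63 in the wild types and 4.19, 2.84 and 3.70 in the knockout-labelled libraries. The groups did not overlap, but knockout-labelled library 2 stood only just above the highest wild type. The change was 0.98 ± 0.24 (1.97-fold, adjusted p = 0.00331). Without knockout-labelled library 1 it was 0.67 and no longer called (adjusted p = 0.0535), and it was not called when only the compared libraries were fitted (adjusted p = 0.0722).

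The slow fibre markers moved in the same libraries. Of 8 slow markers 4 rose in this comparison, among them the slow myosin heavy chain Myh7 (3.55 ± 0.94) and the slow troponin I, Tnni1 (1.82 ± 0.47). Their summed signal was 7.02, 4.26 and 6.26 in the knockout-labelled libraries and 4.48, 6.38 and 4.57 in the wild types, so the ranges overlapped. Knockout-labelled library 2, the lowest of its group in Atp2a2, had the lowest slow marker sum of these 6, while its Sln signal of 1.67 was still above every wild type. Of 10 fast markers none was called by limma (0 at an unadjusted p under 0.05), while their sum was 14.93 to 14.97 against 14.80 to 14.83, without overlap. That sum did not overlap in EDL of the ERRα class either (14.86 to 14.92 against 14.78 to 14.79), where no member was called. The part of fibre composition in the changes of EDL of the ERRα/ERRγ class was not tested.

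**Figure D2:**
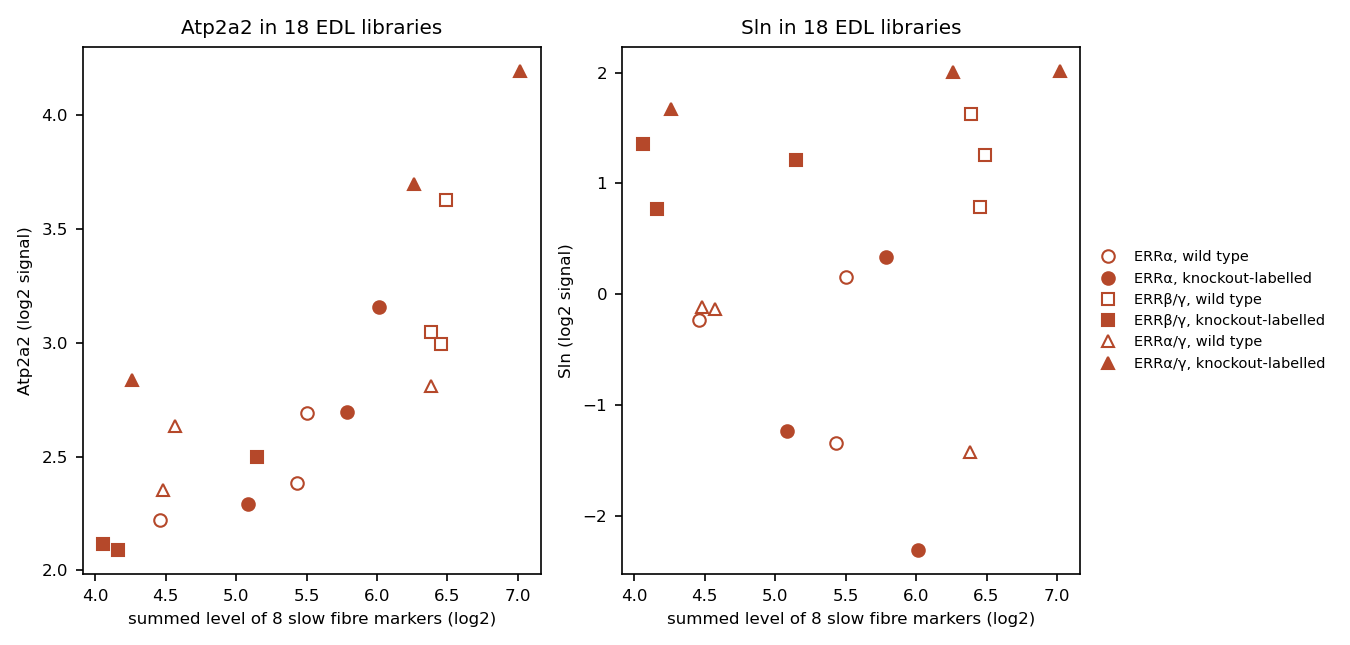
Log2 signal of Atp2a2 (left) and Sln (right) against the summed log2 signal of 8 slow fibre markers in the 18 EDL libraries, with shapes for the deletion class and filled points for knockout-labelled libraries. The highest Atp2a2 signal (4.19) lies at the highest slow marker sum (7.02), whereas the 3 filled triangles of the ERRα/ERRγ class have like Sln signals (1.67 to 2.01) at slow marker sums from 4.26 to 7.02.

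Calsequestrin 2 was the member that fell. Casq2 was 2.96, 4.07 and 3.52 in the wild types and 2.33, 1.59 and 2.30 in the knockout-labelled libraries of this EDL class. All knockout-labelled libraries lay below all wild types. The change was -1.44 ± 0.32 (2.72-fold lower, adjusted p = 0.00135), with -1.72 to -1.16 over the 16 alternatives, all called. In the heart marker list, Nppa and Mybpc3 had no value in any of these 6 libraries.

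The voltage sensor subunit rose slightly and its neighbours in function stayed under the threshold. Cacna1s was 6.95, 6.90 and 7.03 in the wild types and 7.38, 7.36 and 7.15 in the knockout-labelled libraries, without overlap. The change was 0.34 ± 0.096 (1.26-fold, adjusted p = 0.0130), and 4 of 16 alternatives ended the call. These were the fit on recentred libraries (0.28, adjusted p = 0.0916) and the fits without knockout-labelled library 1, knockout-labelled library 2 or wild-type library 2 (0.29 to 0.31). Ryr1 (0.39 ± 0.16, adjusted p = 0.103) and Jph1 (0.31 ± 0.13, adjusted p = 0.0959) had groups that did not overlap but were not called. Casq1 (0.29 ± 0.15), Pln (-0.10 ± 0.47), Pvalb (-0.19 ± 0.45) and Atp2a1 (-0.07 ± 0.15, fixed by rank as above) were not called and their libraries overlapped.

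**Figure D3:**
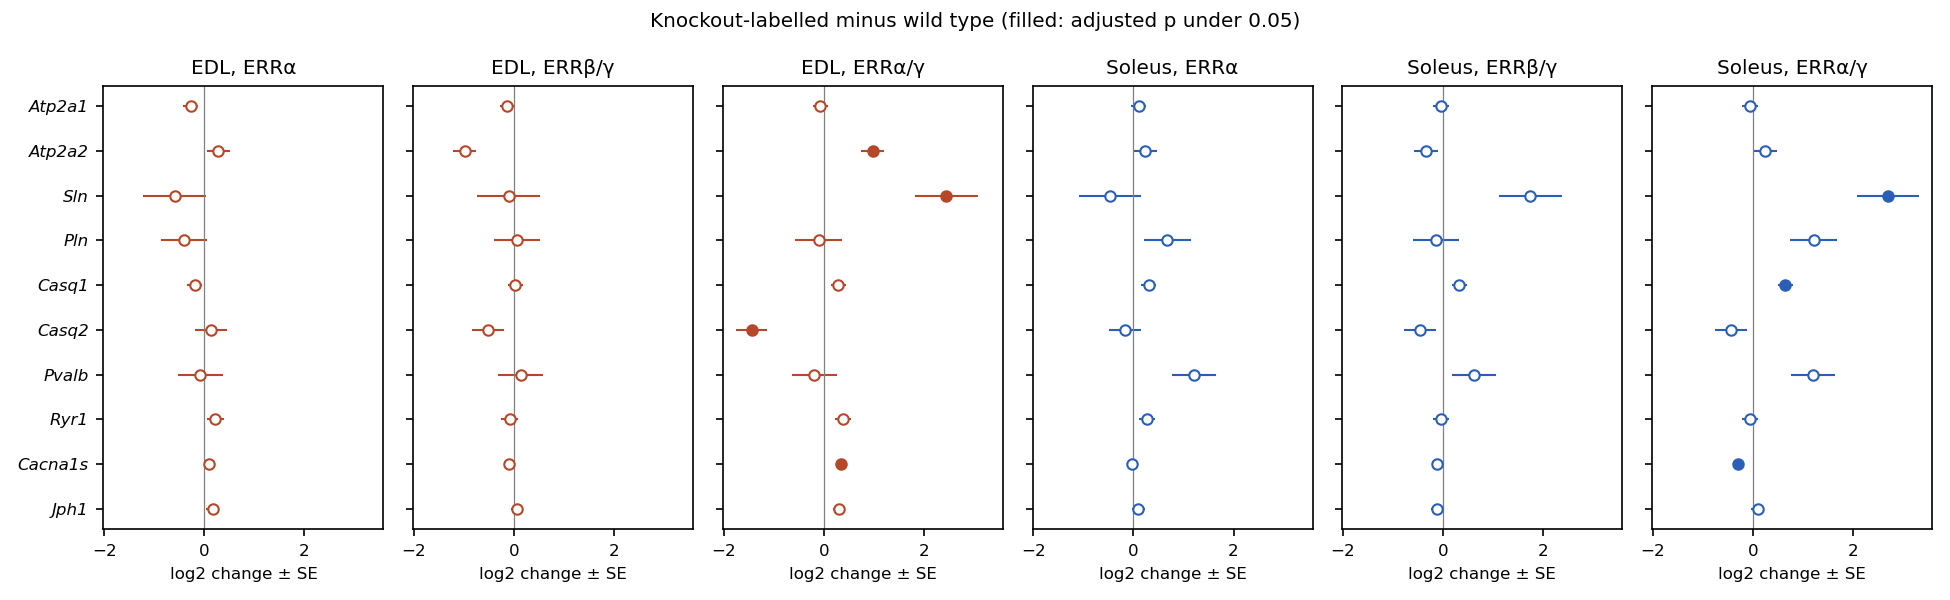
Log2 change ± SE (x axis), knockout-labelled minus wild type, of the 10 genes (y axis) in each muscle and class, n = 3 libraries per group. Filled points have an adjusted p under 0.05: 4 in EDL and 3 in soleus of the ERRα/ERRγ class, and none in the other 4 comparisons.

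In soleus of the same class, 3 of the 10 changed, where 12.7% of all genes were called (6.84% higher, 5.86% lower): Sln and Casq1 rose and Cacna1s fell. The median change of the 10 was 0.17 and that of all genes 0.11, and 5 had an unadjusted p under 0.05. Sln was 4.73, 5.97 and 4.89 in the wild types and 8.49, 7.88 and 7.32 in the knockout-labelled libraries. The lowest knockout-labelled library was more than 1 log2 unit above the highest wild type. The change was 2.70 ± 0.62 (6.51-fold, adjusted p = 0.00317) and stayed called under all 16 alternatives (2.40 to 3.09).

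The fast calsequestrin rose in this slow muscle. Casq1 was 7.57, 7.64 and 7.78 in the wild types and 8.48, 8.19 and 8.27 in the knockout-labelled libraries. The groups were apart, yet each knockout-labelled library remained below the lowest EDL library of any group (9.42). The change was 0.65 ± 0.15 (1.57-fold, adjusted p = 0.00309), called under all 16 alternatives (0.56 to 0.71). The change of Casq2 was -0.44 ± 0.32 (adjusted p = 0.418), with overlapping libraries.

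Cacna1s was 6.26, 6.44 and 6.63 in these soleus wild types and 6.22, 6.07 and 6.17 in the knockout-labelled libraries. The groups did not overlap, though the nearest libraries were close, at 6.26 and 6.22. The change was -0.29 ± 0.096 (1.22-fold lower, adjusted p = 0.0431). It lost its call in the fit of the compared libraries alone (adjusted p = 0.111), in the fit without an intensity trend (adjusted p = 0.0622), and when any 1 of the 6 libraries but wild-type library 1 was left out (-0.33 to -0.20).

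Phospholamban and parvalbumin were higher in mean in this soleus class but not called. Pln was 2.62, 2.40 and 3.12 in the wild types and 3.30, 4.20 and 4.31 in the knockout-labelled libraries (1.22 ± 0.47, adjusted p = 0.0893). It was called with a pseudocount (adjusted p = 0.0302) and in the fit of the compared libraries alone (adjusted p = 0.0331). Pvalb was 7.83, 6.18 and 7.64 in the wild types and 8.12, 8.06 and 9.07 in the knockout-labelled libraries (1.20 ± 0.45, adjusted p = 0.0770), and was called without wild-type library 1 (1.51, adjusted p = 0.0451). Atp2a2 (0.25 ± 0.24), Atp2a1 (-0.06 ± 0.15), Ryr1 (-0.05 ± 0.16) and Jph1 (0.10 ± 0.13) were not called. Of 10 fast fibre markers 3 rose here, the fast actinin Actn3 (2.16 ± 0.58), Mybpc2 (1.35 ± 0.44) and Myl1 (1.07 ± 0.22), and Tnnt3 fell (-0.77 ± 0.16), while none of 8 slow markers was called. The summed fast marker signal was 13.85 to 14.21 in the wild types and 14.17 to 14.46 in the knockout-labelled libraries, and its part in the change of Casq1 was not tested.

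In the ERRβ/ERRγ class none of the 10 was called by limma in either muscle, where 0.218% of genes were called in EDL and 6.71% in soleus. In EDL 1 member had an unadjusted p under 0.05, the slow pump. Atp2a2 was 3.05, 2.99 and 3.62 in the wild types and 2.50, 2.09 and 2.12 in the knockout-labelled libraries. The libraries did not overlap, and the change was -0.99 ± 0.24 (adjusted p = 0.0827). The slow marker sum was 6.39, 6.45 and 6.49 in these wild types and 5.15, 4.16 and 4.06 in the knockout-labelled libraries, and 2 of 8 slow markers fell, the myosin light chains Myl2 (-4.21 ± 0.63) and Myl3 (-2.67 ± 0.56). Of 10 fast markers 1 fell as well, while the fast marker sums of the groups overlapped. The part of these shifts in Atp2a2 was not tested.

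In soleus of the ERRβ/ERRγ class, Sln and Casq1 had an unadjusted p under 0.05. Sln was 5.05, 7.62 and 5.16 in the wild types and 7.16, 6.85 and 9.06 in the knockout-labelled libraries. Wild-type library 2 lay within the knockout-labelled range and the other wild types lay below it. The change was 1.74 ± 0.62 (3.35-fold, adjusted p = 0.0921). It was called without wild-type library 2 (2.58, adjusted p = 0.0106), without knockout-labelled library 2 (2.17, adjusted p = 0.0308) and with a pseudocount (adjusted p = 0.0329). Casq1 was 7.65, 8.09 and 7.99 against 7.72, 8.50 and 8.48, overlapping, with a change of 0.32 ± 0.15 (adjusted p = 0.211), and was called without knockout-labelled library 1 (0.58, adjusted p = 0.00989). The other 8 genes lay between -0.46 ± 0.32 for Casq2 and 0.61 ± 0.45 for Pvalb, with overlapping libraries.

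In the ERRα class none of the 10 was called by limma in EDL, where 3.28% of genes were called and no member had an unadjusted p under 0.05. Sln was 0.15, -0.24 and -1.34 in the wild types and -2.31, -1.24 and 0.34 in the knockout-labelled libraries, a change of -0.59 ± 0.62. Atp2a1 (-0.27 ± 0.15), Casq1 (-0.19 ± 0.15) and Jph1 (0.17 ± 0.13) had groups that did not overlap there, with adjusted p from 0.429 to 0.622. In soleus none was called either, where 0.71% of genes were, and Pvalb and Casq1 had an unadjusted p under 0.05. Pvalb was 7.31, 8.54 and 6.64 against 9.28, 9.10 and 7.75 (1.21 ± 0.45, adjusted p = 0.262), with overlap. Casq1 was 7.46, 7.55 and 7.53 against 7.75, 7.89 and 7.83, without overlap (0.31 ± 0.15, adjusted p = 0.462). Sln in this soleus class was 4.32, 5.09 and 4.58 against 3.68, 4.96 and 3.95 (-0.47 ± 0.62), with overlap.

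Whether a change differed between the muscles of a class was tested as soleus change minus EDL change. In the ERRα/ERRγ class 1 of 10 genes was called, with 2.07% of all genes: Cacna1s, which rose in EDL and fell in soleus, at -0.63 ± 0.14 (adjusted p = 0.00731). That difference was called under all 22 alternatives. Sln rose in both muscles of that class and the difference between them was 0.25 ± 0.88 (adjusted p = 0.973). The fall of Casq2 in EDL and the uncalled change in soleus differed by 1.00 ± 0.45 (adjusted p = 0.410), which does not separate them. None of the 10 was called by limma in the ERRα class (0.0151% of genes, 1 member at an unadjusted p under 0.05) or the ERRβ/ERRγ class (0.21%, 1 member).

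Differences between classes within EDL were called for 4 genes. From ERRα to ERRα/ERRγ, 2 members differed with 4.81% of all genes: the change of Sln by 3.05 ± 0.88 (adjusted p = 0.0399) and that of Casq2 by -1.58 ± 0.45 (adjusted p = 0.0354). From ERRβ/ERRγ to ERRα/ERRγ, 2 differed with 6.87% of all genes: Atp2a2 by 1.96 ± 0.33 (adjusted p = 0.000127) and Cacna1s by 0.44 ± 0.14 (adjusted p = 0.0486). The Atp2a2 difference combines opposite movements, up in 1 class and, uncalled, down in the other. The ERRβ/ERRγ wild types were the highest EDL wild types in Atp2a2 (2.99 to 3.62, against 2.22 to 2.81 in the other classes) and in slow marker sum (6.39 to 6.49, against 4.46 to 6.38), and the knockout-labelled mean of that class (2.23) was near the wild-type means of the others (2.43 and 2.60). Sln from ERRβ/ERRγ to ERRα/ERRγ was 2.56 ± 0.88 (adjusted p = 0.0815), and from ERRα to ERRβ/ERRγ none of the 10 was called by limma (0.415% of genes, 1 member at an unadjusted p under 0.05). That member was Atp2a2, at -1.27 ± 0.33 (adjusted p = 0.0992), which was called without ERRα knockout-labelled library 2 (-1.48, adjusted p = 0.0436). From ERRα to ERRα/ERRγ, Atp2a2 was 0.69 ± 0.33 (adjusted p = 0.339) and was called without ERRα/ERRγ knockout-labelled library 2 (1.06, adjusted p = 0.0327).

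In soleus the change of Sln differed between ERRα and ERRα/ERRγ by 3.17 ± 0.88 (adjusted p = 0.0311), the 1 member called with 4.75% of all genes. Between ERRβ/ERRγ and ERRα/ERRγ it differed by 0.96 ± 0.88 (adjusted p = 0.746) and between ERRα and ERRβ/ERRγ by 2.21 ± 0.88 (adjusted p = 0.244). None of the 10 was called by limma in these last comparisons (1.2% and 0.532% of genes, 1 member each at an unadjusted p under 0.05). These class differences were fragile, with the exception of Atp2a2 between ERRβ/ERRγ and ERRα/ERRγ in EDL, which no omitted library ended.

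Several libraries each ended such a call when left out. For Sln between ERRα and ERRα/ERRγ in EDL, 8 of 12 did: ERRα knockout-labelled 1 and 2, ERRα wild-type 1 and 2, ERRα/ERRγ knockout-labelled 1, 2 and 3, and ERRα/ERRγ wild-type 2 (2.43 to 3.16). For Casq2 in the same comparison 6 of 12 did: ERRα knockout-labelled 3, ERRα wild-type 1 and 2, ERRα/ERRγ knockout-labelled 2, and ERRα/ERRγ wild-type 2 and 3 (-1.58 to -1.26). For Sln in soleus 8 of 12 did: ERRα knockout-labelled 1 and 3, ERRα wild-type 2 and 3, ERRα/ERRγ knockout-labelled 1 and 2, and ERRα/ERRγ wild-type 1 and 3 (2.87 to 3.21). For Cacna1s between ERRβ/ERRγ and ERRα/ERRγ in EDL, 10 of 12 did, all but ERRα/ERRγ knockout-labelled 3 and ERRβ/ERRγ knockout-labelled 3 (0.37 to 0.47). In each case the sign stayed as in the full fit.

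Subtracting 1 gene from its counterpart within a library removes a shift that both share, but not the effect of quantile normalization on ranks. These differences were described without a test. The lowest detected value of a gene was lower for longer genes (slope -0.80 ± 0.018 per doubling of exon length, over the 1059 genes with a value in 4 to 10 libraries). The sources used here do not say whether the signal was scaled by length, so only shifts of these differences between groups are described. The fast minus slow calsequestrin, Casq1 minus Casq2, was 7.10, 5.35 and 6.35 in EDL wild types of the ERRα/ERRγ class and 7.71, 8.49 and 7.81 in the knockout-labelled libraries, a shift of mean by 1.74. In soleus it was 0.78, 0.52 and 1.18 against 1.82, 1.73 and 2.20 in that class, and 0.76, 0.53 and 0.94 against 1.57, 1.64 and 1.36 in the ERRβ/ERRγ class. In all 3 of these comparisons the knockout-labelled libraries were above the wild types without overlap, and in the other 3 they overlapped. In soleus of the ERRβ/ERRγ class the fast marker sum did not overlap either, at 14.43 to 14.48 in knockout-labelled libraries and 13.82 to 14.22 in wild types, with 2 of 10 fast markers called higher, Myl1 (1.36 ± 0.22) and Mylpf (0.80 ± 0.18). Its part in the calsequestrin difference and in Casq1 and Sln of that class was not tested.

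The pump difference, Atp2a1 minus Atp2a2, separated the libraries of the groups in 2 classes of EDL and in no class of soleus. In the ERRα/ERRγ class it was 9.70, 9.14 and 9.56 in wild types and 7.88, 9.12 and 8.29 in knockout-labelled libraries, a shift of -1.04 in which the nearest libraries were almost equal. In the ERRβ/ERRγ class it was 9.28, 8.94 and 8.29 against 9.42, 9.85 and 9.81, a shift of 0.86 the other way. Atp2a1 in EDL moves only in steps between ranks, so these 2 shifts mostly restate the changes of Atp2a2 (0.98 and -0.99). The inhibitor difference, Sln minus Pln, was 0.12, -1.30 and -0.28 in EDL wild types of the ERRα/ERRγ class and 2.43, 1.97 and 1.80 in the knockout-labelled libraries. It did not separate the groups in any soleus class.

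**Figure D4:**
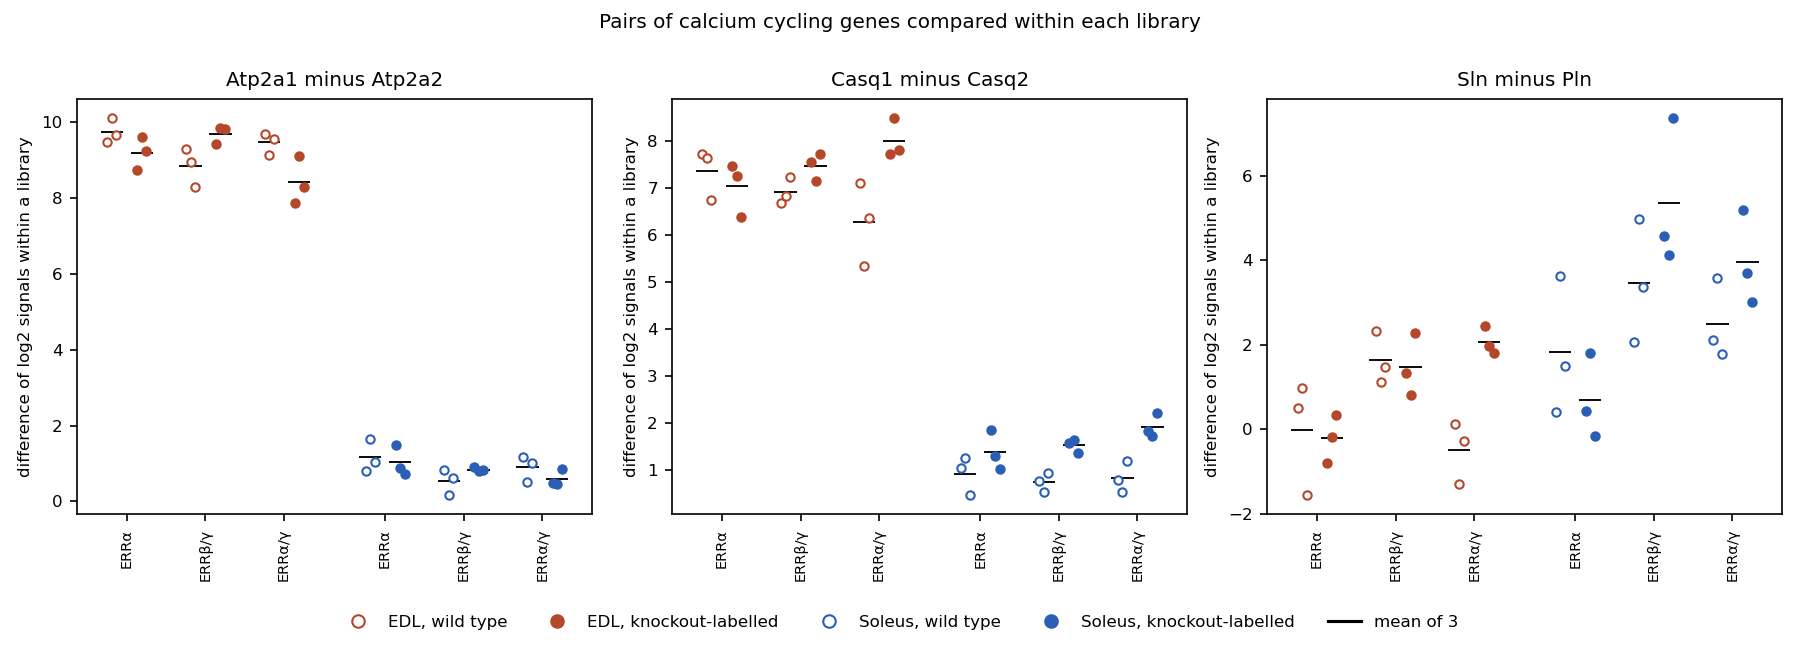
Difference of the log2 signals of 2 genes within each library (y axis) for the pumps, the calsequestrins and the inhibitors, by muscle and class (x axis). Open points are wild-type and filled points knockout-labelled libraries, red for EDL and blue for soleus, and bars are means of 3. Casq1 minus Casq2 is higher in the filled points of the ERRα/ERRγ class in both muscles (7.71 to 8.49 against 5.35 to 7.10 in EDL and 1.73 to 2.20 against 0.52 to 1.18 in soleus).

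Genes of the rest of the calcium pathway were read from 8 lists of 67 genes, of which 65 passed the filter. Ryr2, the heart release channel, did not. In the wild-type comparison 20 of 64 were higher in soleus and 32 lower, against 30.8% and 23.6% of all genes tested. In EDL of the ERRα/ERRγ class 18 rose and 4 fell of 65, against 11.1% and 6.95%. In soleus of that class 9 rose and 2 fell, against 6.84% and 5.86%. In soleus of the ERRβ/ERRγ class 9 rose and 3 fell, where 6.71% of all genes were called. In soleus of the ERRα class 1 rose, where 0.71% were called. In EDL of the ERRα class 2 rose and 1 fell, where 3.28% were called. In EDL of the ERRβ/ERRγ class none was called by limma (2 of 64 at an unadjusted p under 0.05), where 0.218% of all genes were. With only the compared libraries in the fit, none of the 12 calls in soleus of the ERRβ/ERRγ class was kept, nor was the 1 call in soleus of the ERRα class.

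Pump regulators other than Sln and Pln included a gene that moved in opposite directions in the muscles. S100a1 encodes a calcium-binding protein that acts on SERCA and the release channel. In EDL of the ERRα/ERRγ class it was 6.77, 6.97 and 6.70 in wild types and 5.71, 5.88 and 5.80 in knockout-labelled libraries (-1.02 ± 0.11, adjusted p = 2.86e-08). In soleus of that class it was 7.35, 7.58 and 7.71 against 7.98, 8.24 and 8.07 (0.55 ± 0.11, adjusted p = 0.000679). The changes differed by 1.57 ± 0.16 between the muscles (adjusted p = 5.71e-08). It also rose in soleus of the ERRβ/ERRγ class (0.69 ± 0.11) and of the ERRα class (0.50 ± 0.11, adjusted p = 0.0263, lost without any 1 library but wild-type library 1). Mrln, which encodes myoregulin, another SERCA inhibitor, rose in that EDL class from 6.48, 5.94 and 6.28 to 7.02, 7.27 and 7.07 (0.89 ± 0.21, adjusted p = 0.00334) and was 0.12 ± 0.21 and not called in its soleus.

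Among partners of the voltage sensor and of the junction, most calls were rises. Of all calls, 61.5% were rises in EDL and 53.8% in soleus of the ERRα/ERRγ class. In soleus of the ERRβ/ERRγ class 47.1% were. After recentring these shares were 48.9%, 37.7% and 33.4%. Of all genes tested, 11.1% rose and 6.95% fell in EDL of the ERRα/ERRγ class, and 6.84% and 5.86% in its soleus. In soleus of the ERRβ/ERRγ class 6.71% were called in either direction. Cacng1, the γ1 subunit of the channel that Cacna1s forms, rose in EDL (0.77 ± 0.15) and soleus (0.87 ± 0.15) of the ERRα/ERRγ class and in soleus of the ERRβ/ERRγ class (0.85 ± 0.15). In soleus of the ERRα/ERRγ class it thus rose where Cacna1s fell. Cacng6 rose by 0.43 ± 0.080 in that EDL comparison and Cacnb1, the β1 subunit, by 0.48 ± 0.13 in its soleus. Of 16 store and triad genes, 4 rose and none fell in EDL of that class, with Bin1, which shapes transverse tubules, at 0.56 ± 0.074, Jph2 at 0.53 ± 0.12 and Jsrp1 at 0.49 ± 0.069. In soleus of that class 2 rose, Jsrp1 (0.48 ± 0.069) and Bin1 (0.42 ± 0.074), and in soleus of the ERRβ/ERRγ class 3 rose and 2 fell, with the repair protein Dysf at 0.80 ± 0.15, the phosphatase Mtm1 at -0.58 ± 0.11 and Bin1 at 0.37 ± 0.074.

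Calcium signalling and mitochondrial genes gave further calls. The shares of all genes tested were again 11.1% higher and 6.95% lower in EDL of the ERRα/ERRγ class, and 6.84% and 5.86% in its soleus. In soleus of the ERRβ/ERRγ class 6.71% were called. In EDL of the ERRα/ERRγ class 8 of 11 calmodulin, calcineurin and CaMKII genes rose and none fell, with Calm2 at 0.64 ± 0.14, the calcineurin subunit Ppp3ca at 0.62 ± 0.087 and Camk2d at 0.55 ± 0.13. In its soleus 2 rose, Camk2d (0.65 ± 0.13) and Ppp3ca (0.35 ± 0.087), and in soleus of the ERRβ/ERRγ class 3 did, Camk2b (0.53 ± 0.12), Camk2d (0.51 ± 0.13) and Calm3 (0.42 ± 0.094). Of 9 genes of mitochondrial calcium exchange, 3 rose and 3 fell in that EDL class. Slc8b1, the mitochondrial sodium-calcium exchanger, was 0.85 ± 0.20, Letm1 -0.81 ± 0.097 and the outer membrane channel Vdac1 -0.55 ± 0.078. Letm1 and Vdac1 fell in soleus of the ERRα/ERRγ class as well (-0.59 ± 0.097 and -0.59 ± 0.078), and Vdac1 in soleus of the ERRβ/ERRγ class (-0.35 ± 0.078).

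The sodium-calcium exchangers of the plasma membrane rose in soleus of the ERRα/ERRγ class, Slc8a3 by 0.96 ± 0.23 and Slc8a1 by 0.91 ± 0.21. They are 2 of 7 extrusion genes, where 6.84% of all genes tested rose. The entry channel gene Orai2 rose by 1.54 ± 0.42 in soleus of the ERRβ/ERRγ class and lost its call without wild-type library 1 or knockout-labelled library 1 or 3. In EDL of the ERRα class the calls were the release channels Ryr3 (2.06 ± 0.55) and Itpr1 (-0.66 ± 0.19) and Ppp3ca (0.33 ± 0.087). Each of the 6 libraries ended the Itpr1 and Ppp3ca calls when left out, and Ryr3 was lost without knockout-labelled library 2 or 3 or wild-type library 2 or 3. Ryr3 lies near the lowest values of the table (-6.44 to -3.74 in these libraries), and its change was 0.064 with a pseudocount (adjusted p = 0.561). It was also lost with missing values at the lowest value (adjusted p = 0.0601) and with the compared libraries alone (adjusted p = 0.116).

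Some of these calls rested on single libraries (values in parentheses are the log2 changes without them). The calls in EDL of the ERRα/ERRγ class numbered 22 with every library and 18 to 21 when 1 library was left out. Camk2b, 1 of the 8 signalling genes, was lost without any 1 of the 6 libraries and under 5 further settings (0.29 to 0.39 over these alternatives), and Camk2a without wild-type library 2 (0.35). Trdn, a store gene, was lost without knockout-labelled library 1 or 3 or wild-type library 2, and the mitochondrial genes Micu2 and Smdt1 without 5 and 1 of the 6 libraries. These 5 genes are named for their lost calls, after their values were seen. In soleus of the ERRα/ERRγ class, Cacnb1 was lost without knockout-labelled library 1 (0.39) or wild-type library 3 (0.43), and Ppp3ca without wild-type library 3 (0.26). In soleus of the ERRβ/ERRγ class, Camk2b was lost without wild-type library 3 (0.46) and Vdac1 without knockout-labelled library 1 (-0.24). Camk2d in that class was lost without wild-type library 1 or 3 or knockout-labelled library 3 (0.44 to 0.49).

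**Figure D5:**
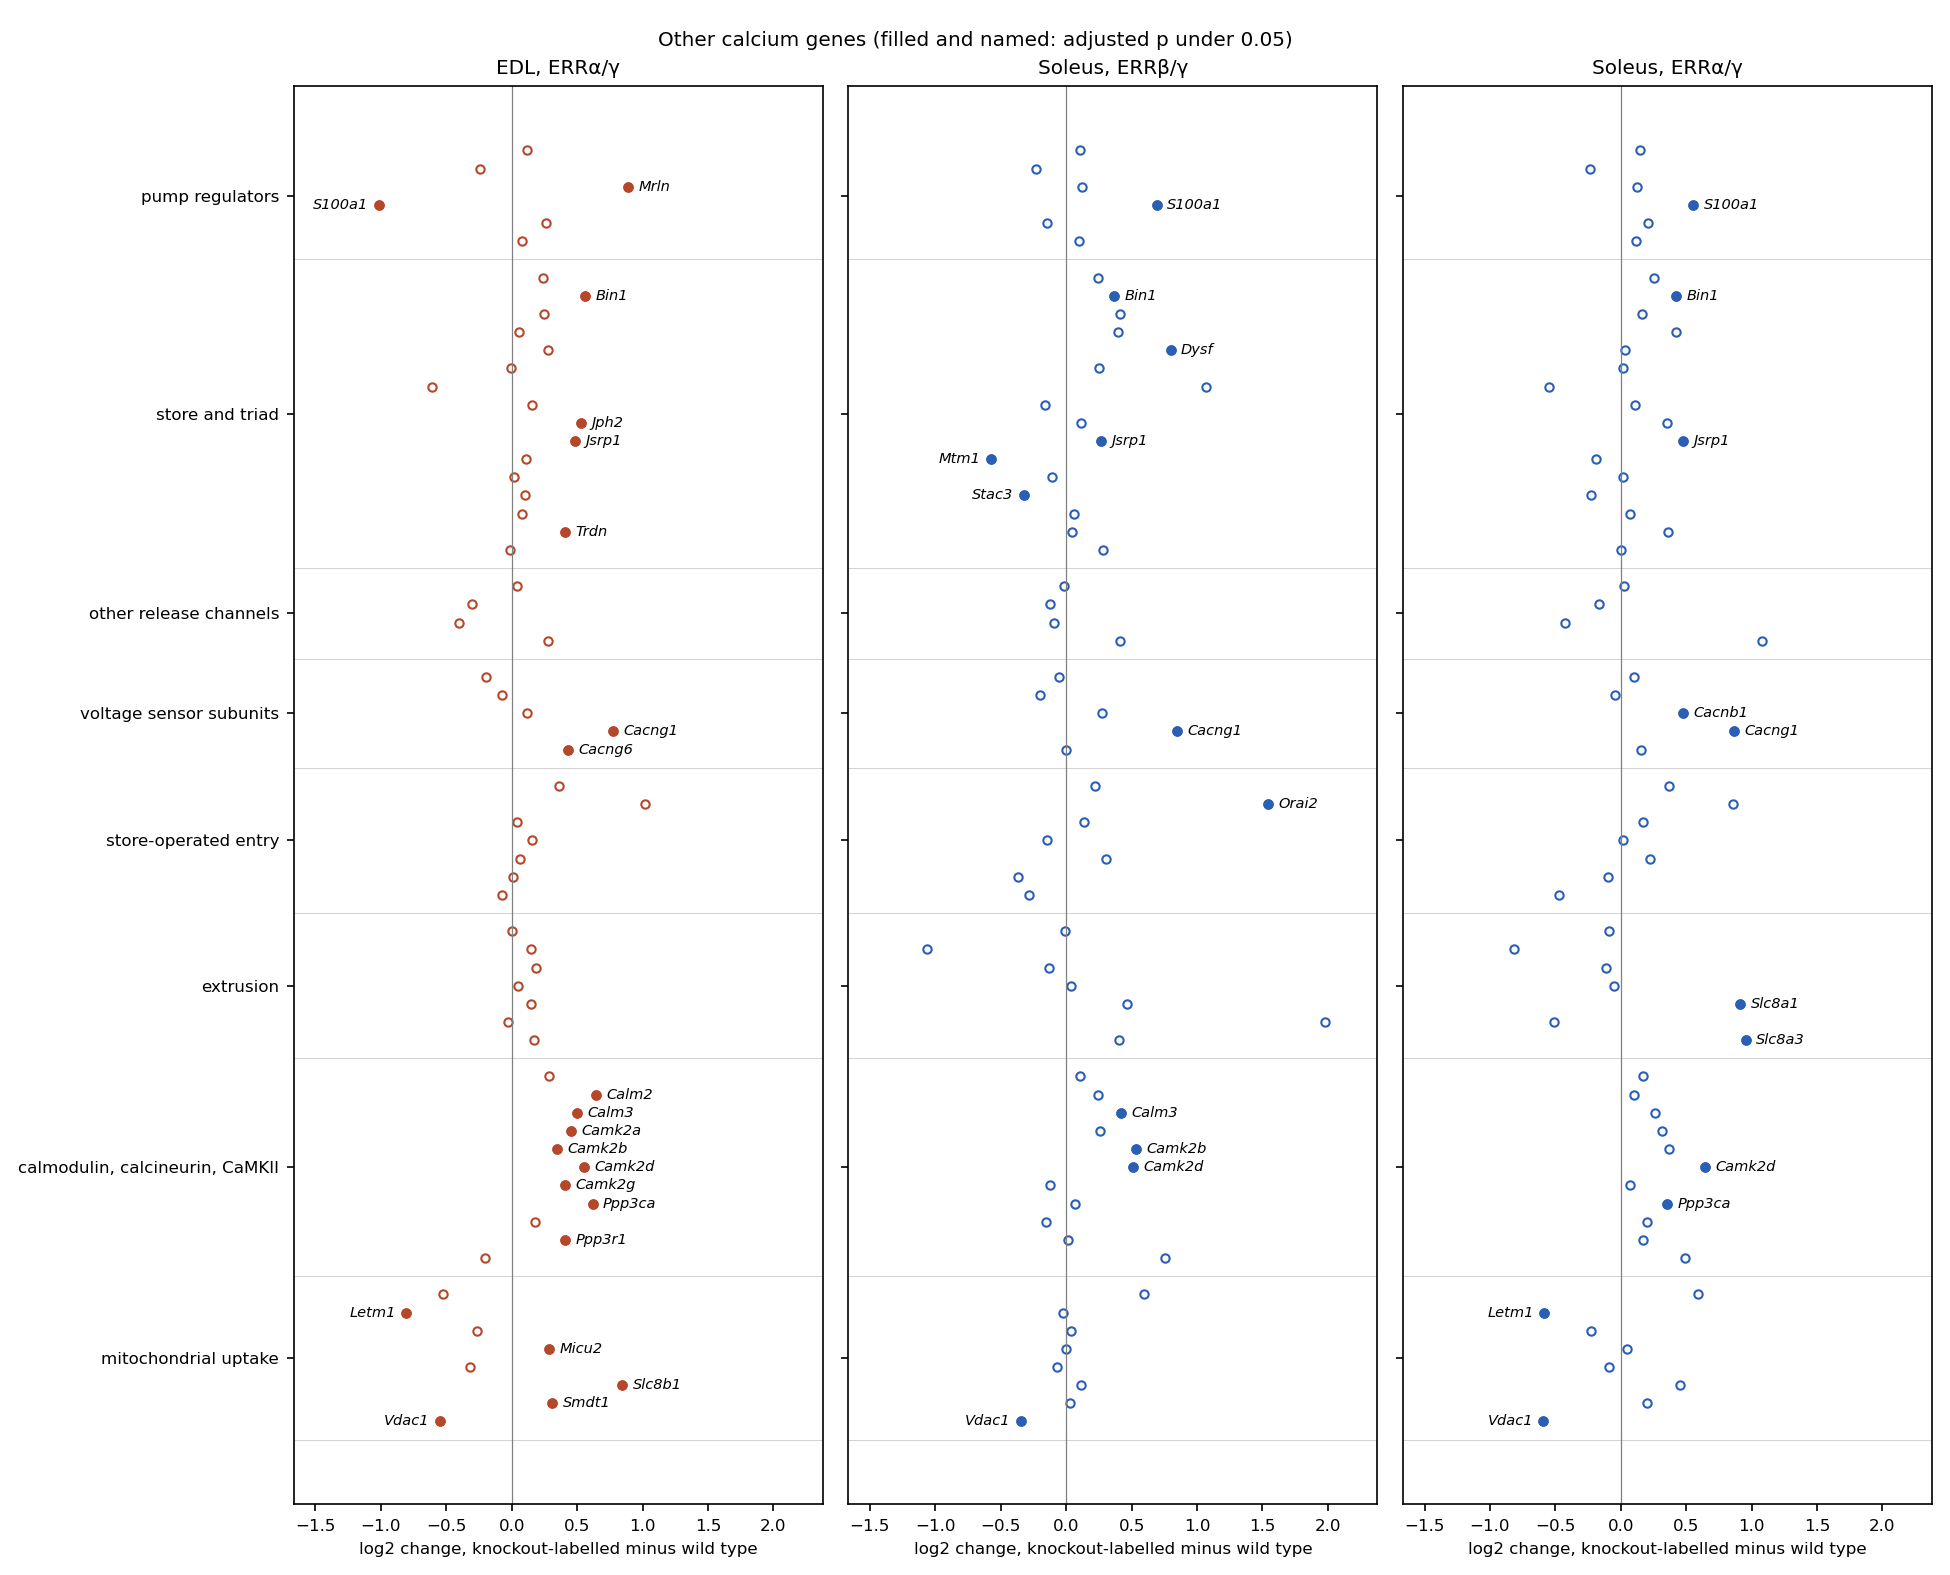
Log2 change (x axis), knockout-labelled minus wild type, of the 65 other calcium genes in 8 lists (y axis, 1 gene per row, 1 gene not drawn), with n = 3 libraries per group. Filled and named points have an adjusted p under 0.05. S100a1 stands at -1.02 in EDL and at 0.55 in soleus of the ERRα/ERRγ class.

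The members varied among themselves across the 36 libraries in ways that are described here by Pearson correlations, after the mean of each muscle was taken away. These are descriptions over libraries that share groups, animals and normalization. Sln went with Casq1 (r = 0.728) and not with its fellow inhibitor Pln (r = 0.024). Ryr1 went with Cacna1s (r = 0.757) and with Jph1 (r = 0.621), and Pln ran against Cacna1s (r = -0.517). The pumps (r = -0.092) and the calsequestrins (r = -0.144) of the 2 fibre types did not follow each other. Casq1 went with Jph1 (r = 0.520) and Atp2a1 with Pvalb (r = 0.549).

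The genes most like each member by that measure were taken from 11914 genes. For Atp2a2 they were the slow troponins Tnnt1 (r = 0.834) and Tnni1 (r = 0.786), and for Pvalb the fast actinin Actn3 (r = 0.882) and the fast myosin Myh4 (r = 0.859). For Sln they were Bag1 and Cacnb1 (both r = 0.796), and for Casq1 Sh3bgr (r = 0.856) and Cacnb1 (r = 0.843), so the β1 subunit of the voltage sensor stood near both. Casq2 was nearest to Apol6 (r = 0.753) and Homer2 (r = 0.733), and Ryr1 to Ndrg2 (r = 0.881) and Pde4dip (r = 0.879). Cacna1s was nearest to R3hdm1 (r = 0.793) and Hdlbp (r = 0.742), Jph1 to Phka1 (r = 0.790) and Dcaf6 (r = 0.788), Atp2a1 to Wnt4 (r = 0.689) and Kcnc4 (r = 0.651), and Pln to Dcun1d5 (r = 0.661) and Gimap6 (r = 0.570). Atp2a1 and Pln had the lowest leading values, at 0.689 and 0.661.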

How the data were processed

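RNA of soleus and EDL was profiled in 36 libraries, made from 400 ng of RNA with 10 PCR cycles and a directional kit, per the labels' protocols. The deposited table holds log2 signals, which per the file's own name the authors quantile normalized. Partek 6.6 and the builds GRCm38.p6 and mm10 stand in the submitters' processing notes, and the aligner, counting method and original unit were not given in the sources used here. No base for the log stands in the file name, and base 2 was read from the steps between the lowest values of a gene. Normalization removed the read totals, so depth is unknown. Columns were matched to groups by muscle, class letters and Cre mark. EDL columns without a class letter were placed in the ERRα class by the animal numbers they share with its soleus columns. Replicate numbers are missing from the columns, and the library numbers printed are names that follow column order.

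Empty cells were taken as not detected. Left out were 27904 rows without a value and 27 rows whose symbols had turned into dates. Genes were kept above the 25th percentile of the gene means (-5.24, missing values counted at the lowest value, -8.21), which left 13404 of 17873. Missing values stayed missing in the tests. Changes were tested with limma 3.58.1 (R 4.3.3), using a trend of variance on intensity, 1 mean per group over all 36 libraries, and Benjamini-Hochberg adjustment over all kept genes within each of 16 contrasts. A gene was called at an adjusted p under 0.05, and only called changes are said to have risen or fallen. SEs come from this fit, with n = 3 libraries per group. The series design calls the 3 replicates biological. The fit was tested on simulated data.

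Of the 22 animals, 14 gave both muscles. Libraries of 1 animal deviated together only weakly (14 pairs, r from -0.07 to 0.32, median 0.10), so the animal was left out of the fit and used as a replicate block in an alternative. Other alternatives were missing values at the lowest value, a pseudocount of 1, other filters, recentring, repeated quantile normalization, fitting the compared libraries alone, no trend, robust moderation and leaving out each library. The members and lists were chosen with earlier results of these data known. Named are all 10 members, up to 3 called genes with the largest change from each other calcium list, and the 2 genes most like each member. The result of 1 gene of these lists is counted but not reported by name here. Summed marker signals are log2 of the sum of linear signals.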

Additional observations from a re-analysis of the deposited data

Results flagged for a closer look

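Among 20 sets of 9 wild-type values (10 genes in 2 muscles), 3 held a library far from the other 8, where chance gives about 1 in 20 for like libraries. Each set pools wild types of 3 classes, which were not alike. Sln in soleus was 7.62 in ERRβ/ERRγ wild-type library 2. Casq1 in EDL was 9.42 in ERRα/ERRγ wild-type library 2. Pvalb in EDL was 12.79 in ERRα/ERRγ wild-type library 1, where it held a higher rank than in the other wild types.

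Of 90 differences between muscles or classes tested for the members, 6 were called. The change of Cacna1s in the ERRα/ERRγ class differed by -0.63 between soleus and EDL. In EDL, the ERRα/ERRγ and ERRα classes differed by 3.05 for Sln and by -1.58 for Casq2, and the ERRα/ERRγ and ERRβ/ERRγ classes by 1.96 for Atp2a2 and by 0.44 for Cacna1s. In soleus, the ERRα/ERRγ and ERRα classes differed by 3.17 for Sln.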

How the results depend on the processing

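Of 3220 member values under alternatives, 3152 kept their sign where called and their side of the threshold, 57 lost a call, 11 gained one and none reversed. Most of these values belong to results that were not called in the full fit. The wild-type comparison of the muscles, called throughout for all 10 members, is also among them. The 3152 therefore says little about how firm the calls in knockout-labelled libraries are. The number of members called rose from 0 to 1 in soleus of the ERRβ/ERRγ class with a pseudocount. For ERRα/ERRγ against ERRα in EDL it went from 2 to 1 without a filter and with robust moderation, and to 0 without a trend, with the compared libraries alone and with a pseudocount. For ERRα/ERRγ against ERRβ/ERRγ in EDL it went from 2 to 1 without a filter, without a trend, after recentring and after repeated quantile normalization. Among other calcium genes, recentring gave 1 call for 3 in EDL of the ERRα class, and 2 for 4 between ERRα/ERRγ and ERRα in soleus. Fitting the compared libraries alone gave 0 for 1 in soleus of the ERRα class, 0 for 12 in soleus of the ERRβ/ERRγ class, and 0 for 1 between ERRα/ERRγ and ERRβ/ERRγ in soleus, which was also 0 without a trend. For the muscle difference of the ERRβ/ERRγ class it was 1 for 0 with the filter at the median, with a pseudocount and with robust moderation. Those causes were not tested.

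Leaving out 1 library gave 2 to 4 members in EDL of the ERRα/ERRγ class and 0 to 1 in soleus of the ERRβ/ERRγ class. Members called ranged from 0 to 2 between ERRα/ERRγ and ERRα in EDL, 1 to 2 between ERRα/ERRγ and ERRβ/ERRγ in EDL, 0 to 1 between ERRβ/ERRγ and ERRα in EDL, and 0 to 1 between ERRα/ERRγ and ERRα in soleus. Other calcium genes ranged from 0 to 1 in EDL and in soleus of the ERRα class, 9 to 19 in soleus of the ERRβ/ERRγ class, and 0 to 9 in the muscle difference of that class. Between classes in soleus they ranged from 2 to 4 (ERRα/ERRγ and ERRα), 0 to 3 (ERRα/ERRγ and ERRβ/ERRγ) and 0 to 6 (ERRβ/ERRγ and ERRα). Each deleted library left 2 in its group, and the spread came from all groups.

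With the animal as a replicate block (estimated correlation 0.137), the muscle difference of the ERRβ/ERRγ class gave 3 other calcium genes for 0, and no call of a member changed. No pairing of knockout-labelled with wild-type libraries was possible because the columns carry no replicate number. Over all genes, recentring moved the share of calls that were higher from 61.5% to 48.9% in EDL and from 53.8% to 37.7% in soleus of the ERRα/ERRγ class, and from 47.1% to 33.4% in soleus of the ERRβ/ERRγ class. Recentring lowered the median change of all genes in the ERRα/ERRγ class from 0.13 to 0.065 in EDL and from 0.11 to 0.044 in soleus. Depth limits could not be given, since the values hold no counts.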
